A study of Homo sapiens with 6 samples.

Results

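The zinc finger gene cluster of chromosome band 19p12 was followed in human naive and primed embryonic stem cells by bulk RNA-seq of polyadenylated RNA. Its 36 members were taken by name from a list of ZNF genes of the cluster, out of 57817 gene names in the count table, and the counts of identifiers that share a name were summed. In GRCh38 the 36 genes lie between positions 19668796 and 24129968 of chromosome 19, a span of 4.461 Mb, with 19 on the plus and 17 on the minus strand, and GENCODE 44 annotates each as protein-coding. The members were selected on the naive against primed difference of the cluster in these libraries, so their values in that contrast are a description. The counts of members past the threshold of the fit over all genes are given only beside the same share of all genes or for other settings of that fit, and support nothing.

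All cells carried the EOS-GFP reporter, which is activated on conversion to the naive state, in a human embryonic stem cell line that the sample labels name H1 and the methods of the study name H9. The 4 naive libraries were 2 induced with AICAR, an activator of the energy sensor AMPK (14 days, then 14 or 15 passages), 1 induced with doxycycline through a transgene for CA-p38, a constitutively active p38 kinase (7 days, then 12 passages), and 1 induced with VPA, valproic acid, an inhibitor of histone deacetylases (9 days, then 12 passages). The 2 primed libraries were the parents, EOS for the AICAR and VPA cells and CA-p38 EOS, which carries the transgene, for the CA-p38 cells. After induction, naive cells had been maintained in PXGL medium, which contains inhibitors of MEK, tankyrase and protein kinase C and human LIF. They had been sorted for CD75 and SUSD2, whereas primed cells grew in StemFit AK02N on Matrigel without that sort. Per the study, AICAR and CA-p38 induction also took place in PXGL. VPA was given with the MEK inhibitor and LIF, without the inhibitors of tankyrase and protein kinase C. AICAR was continued at a lower dose for a further week after the 14 days. The doxycycline treatment that the study describes was shorter than the 7 days. The labels place naive cells on mouse embryonic fibroblast feeders, while the text of the study also describes a later feeder-free culture of the CA-p38 cells, and which of these its library came from is not given in the sources used here. State, medium, sort and, where used, the feeder layer changed together and cannot be told apart. Nothing in the labels says that the AICAR libraries came from separate inductions, so p-values measure the spread between these libraries, which may be technical.

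Total counts ran from 46823699 to 54277064 per library, and all 36 members passed the filter on low counts. Expression is given as CPM, that is, counts relative to library size after TMM, a correction for library composition. Of the 7 naive markers, SUSD2 itself among them, the summed level was 3808 to 4575 CPM (naive) and 8.24 to 11.4 CPM (primed), and the 6 primed markers gave 30.8 to 42.4 CPM (naive) and 2560 to 3135 CPM (primed). The summed level of 8 fibroblast markers was 50.7 to 92.5 CPM (naive) and 193 to 213 CPM (primed), with LUM at 0 in AICAR 2 and VPA, POSTN at 0 in AICAR 1 and PDGFRB at 0 in VPA. Against that sum, TWIST1 (17.99 to 19.9 against 0.268 and 0.348 CPM) and DCN (0.760 to 1.20 against 0.515 and 0.573 CPM) were higher in every naive library. The CA-p38 library had the highest level of the naive libraries in COL1A1 (27.9 CPM, against 9.49 to 11.5 CPM), COL3A1 (16.5 CPM, against 3.55 to 7.004 CPM) and LUM (1.16 CPM, against 0 to 0.311 CPM). For COL3A1 and LUM it also lay above both primed libraries (2.21 and 4.81 CPM, 0.0412 and 0.123 CPM). So did AICAR 1 (5.15 and 0.311 CPM), and AICAR 2 for COL3A1 alone (7.004 CPM). Of 6 neural and 6 trophectoderm markers, 5 in each list passed the filter, with 156 to 196 CPM (naive) and 129 to 147 CPM (primed) for the neural list, nearly all of it TUBB3, and 16.7 to 17.9 against 3.87 to 5.38 CPM for the trophectoderm list. Against the neural sum, MAP2 (0 to 0.080 against 6.00 and 6.10 CPM) and DCX (0.095 to 0.659 against 7.31 and 7.44 CPM) were lower in every naive library. PAX6 and SOX1 had overlapping groups, and NEUROG2 stayed at or below 0.19 CPM. In the trophectoderm list, GATA3 (0.380 to 2.44 against 0.164 and 1.46 CPM) and TP63 had overlapping groups. GATA2, CDX2, KRT7 and HAND1 were higher in every naive library. MAP2 and TP63 were at 0 in CA-p38, TP63 also in VPA, NEUROG2 and GATA2 in primed EOS, and CDX2 and HAND1 in primed CA-p38 EOS cells. The part of these other transcripts in the results below was not tested.

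KRAB zinc finger proteins bind DNA through arrays of C2H2 zinc fingers and, through their Krüppel-associated box, recruit the corepressor TRIM28, which in turn brings the histone methyltransferase SETDB1 and other silencing enzymes. Many of them bind transposable elements, and the family grew by tandem duplication, so that neighbouring genes encode similar proteins. The 19p12 cluster is a primate expansion, and its best known members are ZNF91 and ZNF93, which repress SVA and LINE-1 retrotransposons.

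The promoters of the members resemble each other. RefSeq windows of 300 bases, from 250 before to 50 after the annotated start of transcription (GRCh38.p14), were matched for 28 of the 36 members. The entries not matched were those of ZNF506, ZNF253, ZNF738, ZNF676, ZNF729, ZNF98, ZNF99 and ZNF728. Pairwise alignment of the 28 windows gave a median identity of 76.43% over 378 pairs, with a range of 48.89% to 91.0%. The last 150 bases before the start are shown here for 4 members that were far higher in naive cells (ZNF208, ZNF257, ZNF486 and ZNF93), for ZNF43, which was lower, and for ZNF91, which was 1.35-fold higher with overlapping groups. They are written 5′ to 3′ on the coding strand, and capitals mark 2 words, TCCAATCA, which holds the CCAAT element, and CTGTCACTCA, a stretch of the ZNF208 promoter, both picked after the promoters had been seen.
ZNF208: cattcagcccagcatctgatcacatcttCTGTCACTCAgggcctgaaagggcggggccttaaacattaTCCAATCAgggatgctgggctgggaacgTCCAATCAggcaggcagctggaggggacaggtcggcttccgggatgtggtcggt
ZNF257: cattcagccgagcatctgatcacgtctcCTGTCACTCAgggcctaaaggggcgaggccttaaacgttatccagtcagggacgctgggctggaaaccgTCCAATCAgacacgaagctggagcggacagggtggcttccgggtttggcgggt
ZNF486: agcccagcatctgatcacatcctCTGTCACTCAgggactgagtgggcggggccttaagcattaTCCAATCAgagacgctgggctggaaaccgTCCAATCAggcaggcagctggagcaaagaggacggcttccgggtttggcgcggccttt
ZNF93: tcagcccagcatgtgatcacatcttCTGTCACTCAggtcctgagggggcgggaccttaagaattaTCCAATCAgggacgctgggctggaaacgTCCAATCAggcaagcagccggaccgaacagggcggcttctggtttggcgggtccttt
ZNF43: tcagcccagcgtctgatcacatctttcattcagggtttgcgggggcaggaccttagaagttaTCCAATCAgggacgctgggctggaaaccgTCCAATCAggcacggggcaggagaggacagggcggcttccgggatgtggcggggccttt
ZNF91: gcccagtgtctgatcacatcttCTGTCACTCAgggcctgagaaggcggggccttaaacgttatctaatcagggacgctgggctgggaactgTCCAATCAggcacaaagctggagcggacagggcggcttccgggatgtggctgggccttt
The stretches are chr19:22010944-22011093 (- strand), chr19:22052334-22052483 (+ strand), chr19:20167064-20167213 (+ strand), chr19:19900796-19900945 (+ strand), chr19:21836183-21836332 (- strand) and chr19:23395472-23395621 (- strand).

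TCCAATCA, searched on both strands, occurred in 28 of 28 member promoters, compared with 1.61% of 27305 human promoters of the same length. It occurred at least 2 times in 15 of the 28, compared with 0.253% of all promoters. The start of the copy nearest to the transcription start lay at a median of 55.5 bases before it. CTGTCACTCA occurred in 22 of 28 member promoters and in 0.385% of all promoters, and GGGCGG, the core of the GC box, in 21 of 28 and in 44.6%. No word contains another, and the members themselves are among all promoters. Among the 9 matched promoters of members with a naive minus primed log2 difference of at least 2, CTGTCACTCA was present in 9. ZNF208, from whose promoter the word was taken, is among these, so its hit was fixed in advance. Among the 11 with a difference below 1 the word was present in 5, ZNF91 among them and ZNF43 not. The promoters of the 8 members with a difference of 1 to 2 all held it too. Of the members without a matched promoter, ZNF738 had a difference below 1. All the others, ZNF729 and ZNF728 among them, had a difference of at least 2, so the word was not searched in many promoters of that group. The CpG count per window had a median of 10 (8 to 16) for differences of at least 2 and 13 (9 to 18) for those below 1. GC content had a median of 56.0% and 58.0%. These groups follow the expression difference and share ancestry, so the counts are a description and no test was made.

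The expression of the cluster as a whole differed between the states. Summed over the 36 members, the level was 2066 and 2047 CPM in the AICAR pair, 2262 CPM in the CA-p38 library and 1632 CPM in the VPA library, against 485 (primed EOS) and 544 CPM (primed CA-p38 EOS). Every naive library lay above both primed libraries, and the ratio of the means was 3.89. In bulk RNA, a change in the share of cells that express a gene and a change in its RNA per cell cannot be told apart. In edgeR's quasi-likelihood fit, 27 members passed an adjusted p of 0.05 as higher in naive cells and 2 as lower, beside 25.2% and 26.3% of all 28286 genes tested, and 7 passed in neither direction. All naive libraries lay above both primed libraries in 26 members and below both in 3, beside 32.6% and 31.5% of all genes. The median log2 fold change was 1.75 over the members and 0.12 over all genes. Nothing is read from these counts, since the members were proposed with this contrast in view.

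**Figure D1:**
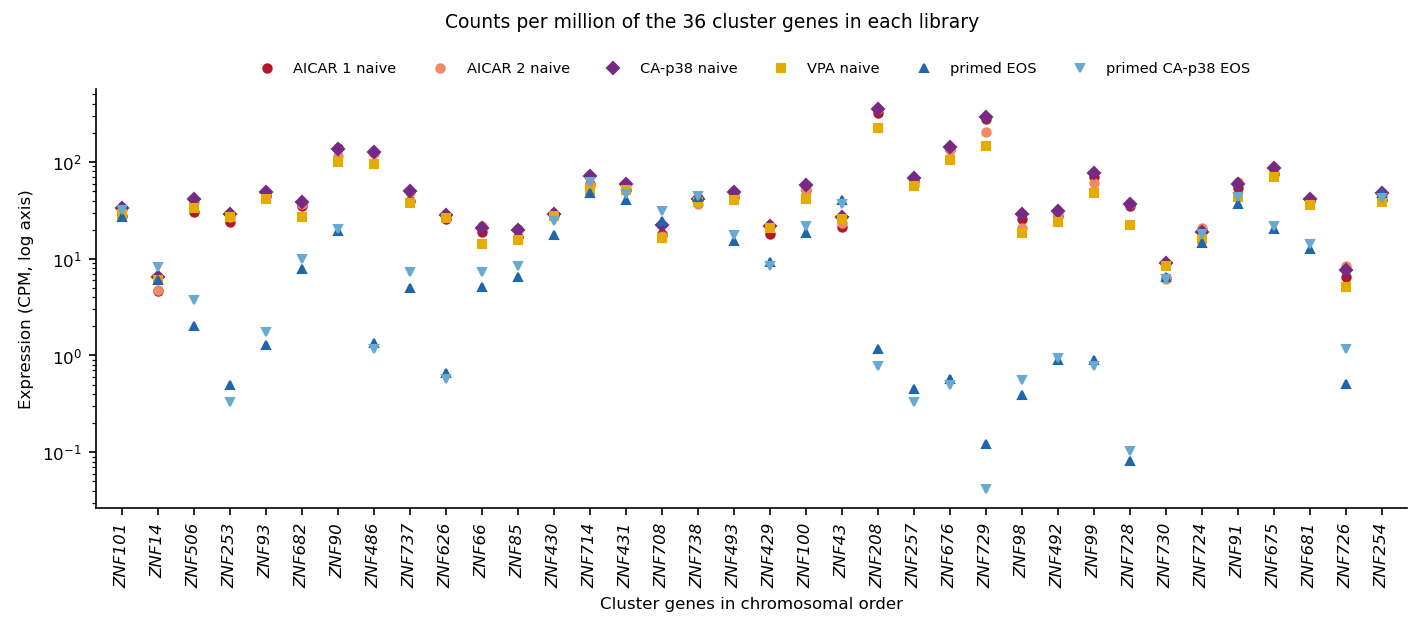
Expression of each of the 36 cluster genes in chromosomal order (x axis) as CPM on a log axis (y axis), with 1 symbol for each of the 4 naive and 2 primed libraries. The naive libraries lie within 2-fold of each other, while the primed mean falls below 2 CPM in 13 genes and the groups overlap in 7.

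The size of the difference ran from a log2 fold change of -0.67 to 11.41. In 10 members the naive level was higher by a log2 difference of at least 5, in 16 by at least 2 and in 24 by at least 1, and the other 12 lay between -0.67 and 0.44. The 13 members with a primed mean under 2 CPM were each higher in naive cells, by log2 differences of 3.04 to 11.41, and the 23 members with a higher primed mean ranged from -0.67 to 3.65.

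The 8 members with the highest fold changes were ZNF729, ZNF728, ZNF208, ZNF676, ZNF257, ZNF486, ZNF99 and ZNF253, each a C2H2 zinc finger gene. ZNF729 was measured at 278 and 204 CPM in the AICAR pair, 293 CPM in the CA-p38 library and 148 CPM in the VPA library, against 0.123 (primed EOS) and 0.0412 CPM (primed CA-p38 EOS). Its primed values rest on 6 and 2 counts. The ratio of the pooled libraries was 2811, with an exact 95% interval of 1426 to 6511 that covers counting error only, and the fitted log2 fold change was 11.41 (SE 0.46). ZNF729 was thus near the limit of detection in both primed libraries and well expressed in every naive library. ZNF728 was measured at 34.9 and 36.8 CPM in the AICAR pair, 36.7 CPM in the CA-p38 library and 22.4 CPM in the VPA library, against 0.0819 (primed EOS) and 0.103 CPM (primed CA-p38 EOS), the primed values from 4 and 5 counts. The pooled ratio was 353 (exact 95% interval 186 to 772, counting error only) and the log2 fold change 8.43 (SE 0.37). VPA cells were lowest of the naive libraries for both genes.

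ZNF208 had 1.17 and 0.783 CPM in the primed EOS and CA-p38 EOS libraries, and 325 and 358 (AICAR), 351 (CA-p38) and 224 CPM (VPA) in the naive libraries. The naive mean was 314 ± 61.7 CPM (SD, n = 4) and the log2 fold change 8.33 (SE 0.28). Its promoter, printed above, carries TCCAATCA in 2 copies, and its closest neighbour ZNF257 has 1 copy. For ZNF257 the libraries gave 63.1 and 57.7 CPM in the AICAR pair, 67.9 CPM in the CA-p38 library and 56.7 CPM in the VPA library, against 0.450 (primed EOS) and 0.330 CPM (primed CA-p38 EOS), a log2 fold change of 7.29 (SE 0.21). ZNF676, the next gene along the chromosome, had 0.573 and 0.495 CPM in the primed EOS and CA-p38 EOS libraries, and 137 and 132 (AICAR), 142 (CA-p38) and 105 CPM (VPA) in the naive libraries. This corresponds to a log2 fold change of 7.91 (SE 0.22). The naive and primed values of these 3 adjacent genes did not overlap, with fitted folds of 156 to 322.

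ZNF486 and ZNF253 belong to the part of the cluster farther from the centromere. In ZNF486 the levels were 124 and 125 CPM in the AICAR pair, 127 CPM in the CA-p38 library and 96.4 CPM in the VPA library, against 1.35 (primed EOS) and 1.15 CPM (primed CA-p38 EOS), with a log2 fold change of 6.56 (SE 0.20). In ZNF253 they were 23.7 and 26.8 CPM in the AICAR pair, 28.9 CPM in the CA-p38 library and 27.3 CPM in the VPA library, against 0.491 (primed EOS) and 0.330 CPM (primed CA-p38 EOS), with a log2 fold change of 6.01 (SE 0.24). In both genes primed cells expressed little and the naive libraries were close to each other, apart from a lower VPA value in ZNF486. ZNF99 had 0.901 and 0.783 CPM in the primed EOS and CA-p38 EOS libraries, and 70.3 and 61.4 (AICAR), 77.7 (CA-p38) and 47.9 CPM (VPA) in the naive libraries, and a log2 fold change of 6.25 (SE 0.26).

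ZNF93, which represses LINE-1 elements of the L1PA lineage, had 1.27 and 1.73 CPM in the primed EOS and CA-p38 EOS libraries, and 44.6 and 47.8 (AICAR), 48.6 (CA-p38) and 41.6 CPM (VPA) in the naive libraries. The naive mean was 45.7 ± 3.21 CPM (SD, n = 4) and the log2 fold change 4.93 (SE 0.19). ZNF91, the repressor of SVA elements, differed much less. Its values were 54.2 and 61.5 CPM in the AICAR pair, 59.3 CPM in the CA-p38 library and 43.1 CPM in the VPA library, against 37.0 (primed EOS) and 43.6 CPM (primed CA-p38 EOS), so the VPA library lay between the primed libraries. The log2 fold change was 0.44 (SE 0.15). The same pair of genes therefore stood 30.4-fold and 1.35-fold higher in naive than in primed cells.

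ZNF85 and ZNF675 showed moderate differences. ZNF85 was measured at 16.7 and 20.4 CPM in the AICAR pair, 19.8 CPM in the CA-p38 library and 15.5 CPM in the VPA library, against 6.55 (primed EOS) and 8.45 CPM (primed CA-p38 EOS), a log2 fold change of 1.27 (SE 0.19). ZNF675, also known as a binding partner of the signalling adaptor TRAF6, was measured at 74.6 and 78.2 CPM in the AICAR pair, 86.8 CPM in the CA-p38 library and 69.8 CPM in the VPA library, against 20.1 (primed EOS) and 21.6 CPM (primed CA-p38 EOS), a log2 fold change of 1.89 (SE 0.13). Naive and primed libraries did not overlap in either gene, and the primed levels were well above the detection limit.

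The 4 lowest fold changes belonged to ZNF43, ZNF708, ZNF14 and ZNF738. ZNF43 had 40.8 and 37.0 CPM in the primed EOS and CA-p38 EOS libraries, and 21.3 and 23.3 (AICAR), 27.1 (CA-p38) and 26.05 CPM (VPA) in the naive libraries, and was lower in naive cells by a log2 fold change of -0.67 (SE 0.14). ZNF708 had 24.7 and 31.5 CPM in the primed EOS and CA-p38 EOS libraries, and 18.1 and 17.1 (AICAR), 22.1 (CA-p38) and 16.3 CPM (VPA) in the naive libraries, with a log2 fold change of -0.61 (SE 0.16). In both genes each naive library lay below each primed library. Without the primed CA-p38 EOS library, the log2 fold change of ZNF708 was -0.42. ZNF14 gave 4.69 and 4.70 CPM in the AICAR pair, 6.55 CPM in the CA-p38 library and 6.08 CPM in the VPA library, against 6.08 (primed EOS) and 8.20 CPM (primed CA-p38 EOS), a log2 fold change of -0.38 (SE 0.24), and its groups overlapped. ZNF738 gave 42.7 and 36.7 CPM in the AICAR pair, 41.5 CPM in the CA-p38 library and 38.5 CPM in the VPA library, against 43.9 (primed EOS) and 44.3 CPM (primed CA-p38 EOS), a log2 fold change of -0.15 (SE 0.12). Its naive values lay just below the primed ones.

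The remaining members are given by their range. Those with every naive library above both primed libraries were ZNF506, ZNF682, ZNF90, ZNF737, ZNF626, ZNF66, ZNF430, ZNF431, ZNF493, ZNF429, ZNF100, ZNF98, ZNF492, ZNF681 and ZNF726, with log2 fold changes from 0.31 (ZNF431) to 5.63 (ZNF98). Besides ZNF14 and ZNF91, the genes with overlapping groups were ZNF101, ZNF714, ZNF730, ZNF724 and ZNF254, with log2 fold changes from -0.07 to 0.24.

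Along the chromosome the members fell into 9 alternating runs when cut at a log2 fold change of 1. The first 2 genes, ZNF101 and ZNF14, lay below 1. They were followed by 10 genes from ZNF506 to ZNF85 with log2 fold changes of 1.27 to 6.56, then 5 genes from ZNF430 to ZNF738 between -0.61 and 0.43. ZNF493, ZNF429 and ZNF100 reached 1.24 to 1.45, and ZNF43 next to them lay at -0.67.

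The second long run held 8 genes from ZNF208 to ZNF728, between positions 21932958 and 23003176, with log2 fold changes of 4.93 to 11.41 and a primed mean under 1 CPM in every gene. Directly beside it, ZNF730, ZNF724 and ZNF91 lay between 0.21 and 0.44 with primed means of 6.35 to 40.3 CPM. ZNF675, ZNF681 and ZNF726 reached 1.56 to 3.04, and the last gene, ZNF254, lay at -0.07. ZNF43 and ZNF208, adjacent in the list, thus stood on opposite sides of 0. The cut at 1 was chosen with the values known, and just inside it stood ZNF429 at 1.24, just outside it ZNF91 at 0.44.

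**Figure D2:**
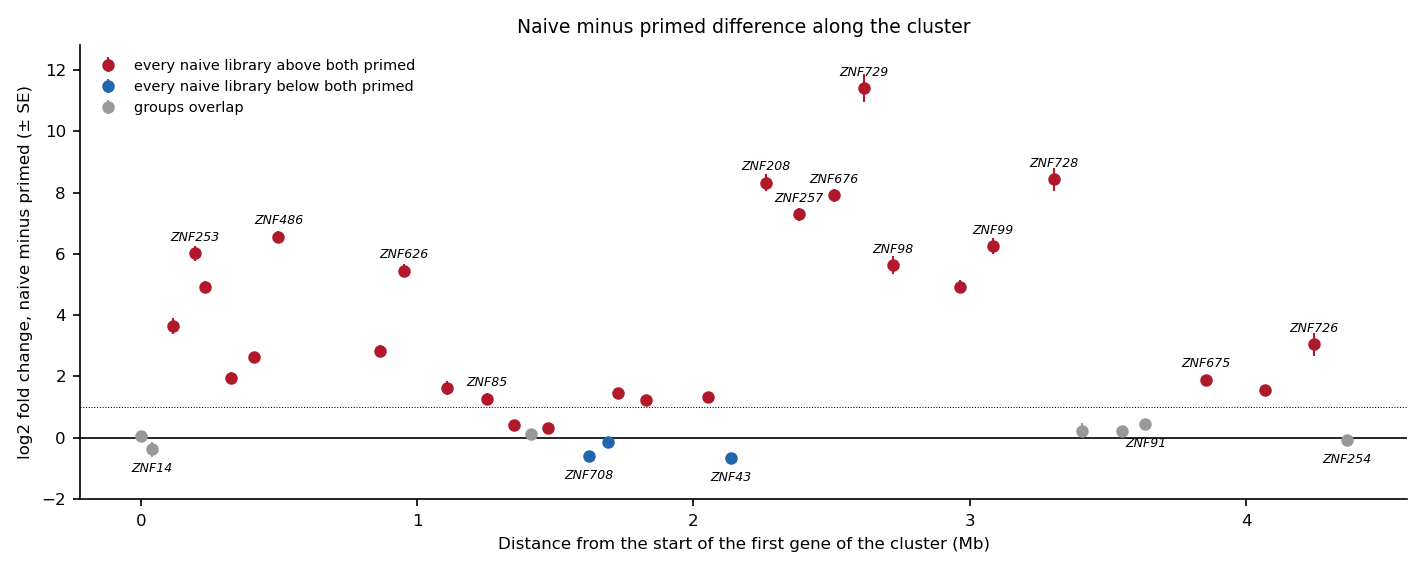
Naive minus primed log2 fold change of each cluster gene (y axis, bars are the SE of the fit across 6 libraries) against the distance of its start from the start of the first gene in Mb (x axis). Red points mark genes with every naive library above both primed libraries, blue points those with every naive library below both and grey points those with overlapping groups, and the dotted line marks 1. The block from ZNF208 to ZNF728 lies between 4.93 and 11.41, with genes close to 0 on both sides.

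Divided by the length of their annotated exons, the members could be set against each other. In naive cells ZNF729 had the highest level at 60.0 CPM per kb, followed by ZNF486 at 27.6, ZNF676 at 27.2, ZNF208 at 26.4 and ZNF90 at 20.3 CPM per kb. In primed cells ZNF729 was the lowest at 0.0213 CPM per kb, and ZNF708 the highest at 6.497 CPM per kb, followed by ZNF254 at 5.95 and ZNF714 at 5.56 CPM per kb. The order of the members was thus far from the same in the 2 states, with ZNF708 in rank 1 of 36 in primed and rank 23 in naive cells. ZNF90 kept a similar rank, 9 in primed and 5 in naive cells. The lowest level per length in naive cells was that of ZNF726, 1.14 CPM per kb. ZNF726 was measured at 6.54 and 8.33 CPM in the AICAR pair, 7.64 CPM in the CA-p38 library and 5.05 CPM in the VPA library, against 0.512 (primed EOS) and 1.15 CPM (primed CA-p38 EOS), and its groups did not overlap (log2 fold change 3.04, SE 0.38).

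**Figure D3:**
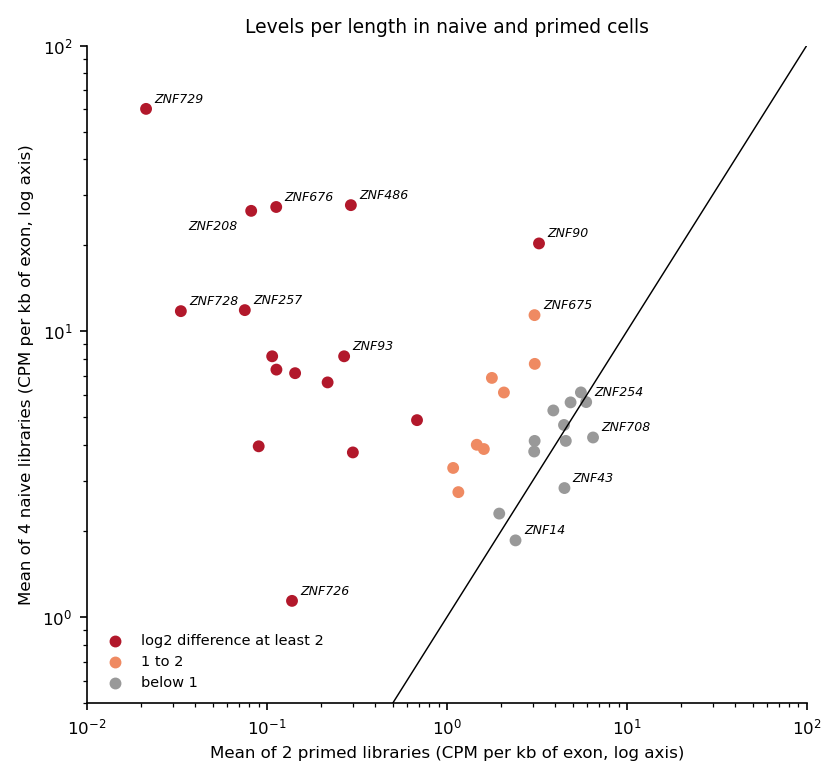
Mean level of each cluster gene in the 4 naive libraries (y axis) against the 2 primed libraries (x axis), both as CPM per kb of annotated exon on log axes, coloured by the log2 fold change, with the line of equality. Genes with a difference below 1 lie along the line between 1.86 and 6.12 CPM per kb in naive cells, while ZNF729, ZNF486, ZNF676 and ZNF208 lie at 26.4 to 60.0 CPM per kb in naive and at most 0.293 CPM per kb in primed cells.

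Similar genes can exchange reads, and alignments with a mapping quality of 1 or more were counted. Of the 50-base words in the longest annotated transcript of each member, a median of 6.947% also occurred in another gene, and 11 members exceeded 10%. The share was 58.1% in ZNF98, mostly with ZNF492, 55.4% in ZNF724, 33.9% in ZNF492, 33.8% in ZNF208, 28.7% in ZNF738 and 10.4% in ZNF729. In ZNF208, 26.4% of the words occurred in ENSG00000279377 alone, and in ZNF738, 26.6% in ENSG00000213976. The values of ZNF98, ZNF724, ZNF492, ZNF208 and ZNF738 are therefore uncertain as to which copy they measure.

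A separate question was whether the members differ among the ways of induction and between the 2 parental lines, contrasts other than the one that the list was proposed on. VPA and CA-p38 have 1 library each, which is assumed to vary like the AICAR pair and the primed pair. In edgeR, no member passed the adjusted threshold for VPA against CA-p38, beside 0.0% of all genes, and 10 members had an unadjusted p under 0.05, beside 6.31%. The direction was nevertheless uniform, since the level was lower in VPA than in CA-p38 cells in 36 of 36 members under each of the 3 scalings tried, beside 49.5% of all genes. The log2 differences ran from -0.99 to -0.06 with a median of -0.34, compared with 0.00 over all genes. The members share libraries and scaling and are not independent of each other.

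ZNF729 had the widest gap, 148 CPM in VPA against 293 CPM in CA-p38 cells, a log2 difference of -0.99 (SE 0.23) with an adjusted p of 0.708. In ZNF208 the difference was -0.64 (SE 0.20) with an adjusted p of 0.776. DESeq2 called 1 member in this contrast, ZNF729 with an adjusted p of 0.0483, beside 22 genes over the whole table, and limma-voom called 0 members. With either primed library left out, the spread came from the AICAR pair alone. The log2 difference in edgeR was then -0.99 in ZNF729 and -0.65 in ZNF208. Calls rose over all genes in these fits, not only among the members.

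VPA cells were the lowest of the 4 naive libraries in 27 members, beside 26.7% of all genes, and CA-p38 cells the highest in 27, beside 23.4%. Against the AICAR pair, VPA was lower in 31 of 36 members, with a median log2 difference of -0.19, compared with -0.001 over all genes. No member passed (0.00707% of all genes did), and 7 had an unadjusted p under 0.05, beside 6.87%, while DESeq2 and limma-voom called 0 members. CA-p38 was higher than the AICAR pair in 35 of 36 members with a median of 0.14, compared with -0.018 over all genes. In that contrast 0 members passed in edgeR (0.0% of all genes), in DESeq2 and in limma-voom, and 0 had an unadjusted p under 0.05, beside 4.2%. The share of all genes in the same direction was not counted for either contrast with AICAR, so these sign counts are a description. The contrasts with VPA share that library, so they are not separate evidence of its level. The summed level of the naive markers was likewise lowest in VPA at 3808 CPM, against 4240 to 4575 CPM in the other naive libraries. Its part in the lower cluster level was not tested, and with 1 VPA library a difference between methods and one between libraries cannot be told apart. For VPA the inducer and the induction medium also changed together and cannot be told apart.

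**Figure D4:**
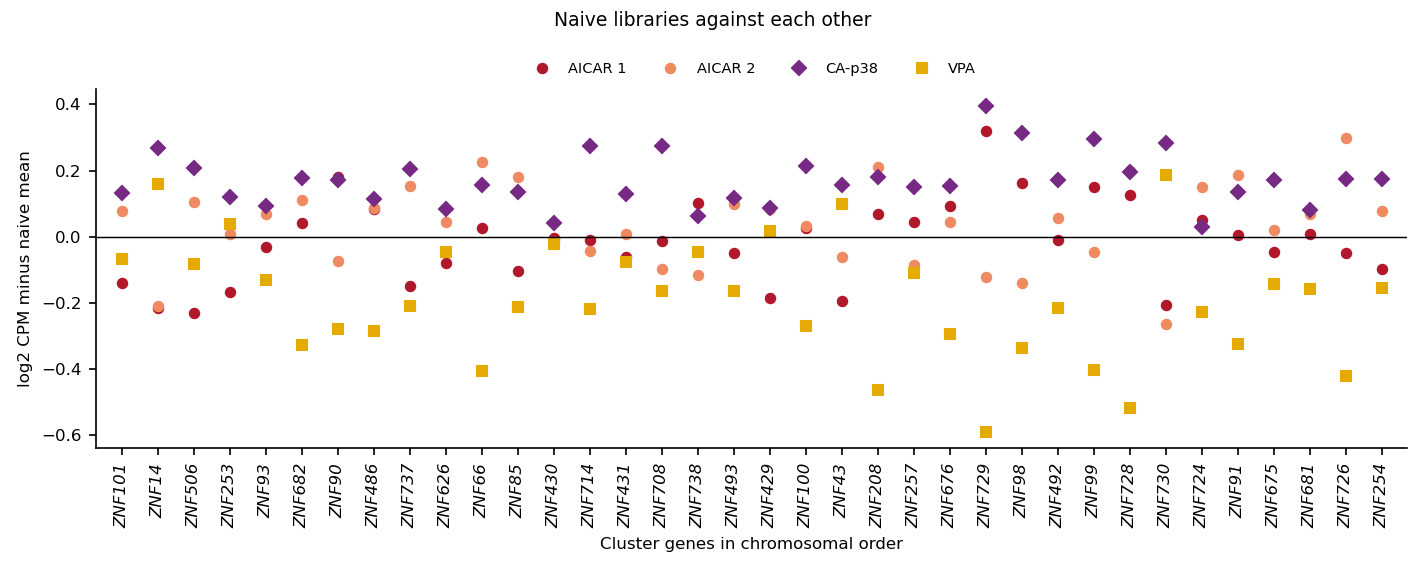
Log2 CPM of each cluster gene in each naive library minus its mean over the 4 naive libraries (y axis), genes in chromosomal order (x axis). VPA squares lie at the bottom in 27 of 36 genes and CA-p38 diamonds at the top in 27 of 36, and ZNF729 has the widest spread, from 148 to 293 CPM.

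Between the lines, in a model with state and line, the CA-p38 EOS line was higher in all 36 members (in 35 with library totals as the scaling). The log2 differences ran from 0.01 to 0.52 with a median of 0.19, compared with 0.00 over all genes. The share of all genes higher in that line was not counted in this model. In edgeR 0 members passed the adjusted threshold, beside 0.0% of all genes, as in DESeq2 and limma-voom, and 4 had an unadjusted p under 0.05, beside 4.26%. These were ZNF506, ZNF737, ZNF714 and ZNF708, singled out after their values were seen, with log2 differences of 0.48, 0.36, 0.36 and 0.36. Among the primed libraries alone, CA-p38 EOS was above EOS in 24 of 36 members, beside 52.5% of all genes. The line term also holds the way of induction of the naive CA-p38 library. Its EOS side includes the VPA library, the lowest of the naive libraries in 27 members, so its direction is not separate from the method contrasts. The change from primed to naive did not differ detectably between the lines, with 0 members past the threshold in edgeR (0.00707% of all genes), in DESeq2 and in limma-voom, 0 members with an unadjusted p under 0.05 (3.23% of all genes), and interaction terms from -0.97 (ZNF726) to 2.0 (ZNF729). The model leaves 2 residual degrees of freedom, and the term of ZNF729 rests on 6 and 2 primed counts.

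Taken against its own parent, with 0.5 CPM added to both, the median log2 ratio over the members was 1.83 and 1.96 for the AICAR pair, 1.71 for CA-p38 and 1.59 for VPA. The AICAR and VPA ratios share the primed EOS library, and the members were selected on these values.

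The silencing machinery that KRAB proteins recruit was measured in the same libraries from a list of 14 genes, of which 2 (14.3%) rose and 4 (28.6%) fell in naive cells, beside 25.2% and 26.3% of all genes tested. Without the primed CA-p38 EOS library 1 rose. The median of the list was -0.13 on the log2 scale. The list was chosen with earlier results of these data known, so the counts and p-values of its genes are a description. All naive libraries lay below both primed libraries in 7 of the 14 genes and above both in 2, beside 31.5% and 32.6% of all genes. TRIM28, the corepressor, had 943 to 1011 CPM (naive) and 971 to 972 CPM (primed), with overlapping groups and a log2 fold change of -0.0027 (adjusted p = 0.980 in edgeR). SETDB1, the histone H3 lysine 9 methyltransferase, had 46.3 to 53.1 CPM (naive) and 54.8 to 56.1 CPM (primed), without overlap (log2 fold change -0.13, adjusted p = 0.362 in edgeR).

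The 4 machinery genes that fell in naive cells were CBX5, which encodes the heterochromatin protein HP1 alpha, CHD4, the ATPase of the NuRD complex, HDAC2, a histone deacetylase, and MORC2, an ATPase that acts with the HUSH complex. CBX5 had a naive mean of 53.97 ± 4.53 CPM (SD, n = 4) and a primed mean of 393 ± 9.52 CPM (SD, n = 2), a difference of -2.87 on the log2 scale (SE 0.10, edgeR adjusted p = 1.73e-10). CHD4, MORC2 and HDAC2 changed by -1.36, -1.31 and -0.96 on the log2 scale. HDAC1, another deacetylase, and MPHOSPH8, the chromodomain subunit of HUSH, rose by 0.40 and 0.73 on the log2 scale.

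Other zinc finger genes give a scale for the cluster. Of 437 other tested genes named ZNF and a number, 152 (34.8%) were higher and 117 (26.8%) lower in naive cells, beside 25.2% and 26.3% of all genes tested, around a median of 0.06 on the log2 scale. In the zinc finger group of 7q11, which is related to the 19p12 genes, 9 of 10 were higher and 0 lower, and 5 were higher without the primed EOS library. The median of the 10 was 2.92 on the log2 scale. Of the 9, ZNF679 and ZNF735 had naive means of 0.167 and 0.222 CPM and were at 0 in both primed libraries, ZNF735 also in VPA cells. The log2 fold changes of ZNF679 and ZNF735, 6.11 and 6.51, enter that median. Both genes passed the filter through the naive libraries alone and could only come out as higher. The median and the 9 of 10 are therefore not ranked against the cluster. ZNF736 there had 21.7 to 25.2 CPM (naive) and 0.409 to 0.927 CPM (primed), and ZNF92 did not pass (log2 fold change -0.19). In the 19p13 group, 20 of 36 (55.6%) were higher and 3 (8.33%) lower, with a median of 0.78. The 437 are defined by name alone, so they also take in ZNF genes of the 7q11 and 19p13 groups. The lists give counts and medians beside each other, and no test sets the cluster apart from the other lists.

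Other features lie among the members. GENCODE 44 places 163 of the names in the table between the first and the last member, of which 79 were tested, 42 (53.2%) rose and 2 (2.53%) fell in naive cells, beside 25.2% and 26.3% of all genes tested. Among 44 tested pseudogenes 27 (61.4%) rose and 1 fell, and among 33 long noncoding RNA genes 14 (42.4%) rose and 1 fell. These counts include features at 0 in both primed libraries, such as the pseudogenes BNIP3P9 and BNIP3P30 (naive means 0.565 and 0.590 CPM). The long noncoding RNA gene ENSG00000269110 (0.726 CPM) is another. Such features passed the filter through the naive libraries alone and could only come out as higher, so nothing is read from these counts. The 2 that fell, named after their values were seen, were the pseudogene IPO5P1 (3.59 to 5.94 CPM against 7.44 and 7.88 CPM in primed cells) and the long noncoding RNA gene ENSG00000267886 (1.06 to 4.80 against 10.1 and 10.9 CPM).

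Of the tested features, 38 overlap the body of a member and 41 lie between members, and 23 and 19 of them were higher in naive cells, beside the 25.2% of all genes. Both groups hold features at 0 in both primed libraries, among them ENSG00000269110 in the first and MTDHP4 in the second. One feature of the second group is the vomeronasal receptor pseudogene VN1R87P, also named after its values were seen, with 15.9 to 20.9 CPM in naive libraries and 1 count in each primed library. ZNF723, a protein-coding neighbour outside the list, had 8.32 to 17.4 CPM (naive) and 0.164 and 0.227 CPM (primed). Whether the counting used strand is not given in the sources used here, so reads of overlapping features cannot be told apart.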

How the data were processed

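Polyadenylated RNA of 6 libraries was sequenced by the study, which made them with the SMART-Seq Stranded kit. Per the submitters' processing notes, adapters were trimmed with cutadapt 1.15 through Trim Galore 0.4.4. The authors used Bowtie2 to map reads to transcript sequences, coding and noncoding, of Ensembl release 100 (GRCh38), required a mapping quality of 1 or more and deposited whole-number counts per gene identifier, without normalization. Columns of other studies in the same table (23) were left unused, and 26 spike-in features were kept out of the totals. The members of the cluster and the gene lists were chosen with earlier results of these data known.

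Identifiers that share a name were summed (43 identifiers for the 36 members), except 21409 identifiers with clone-style names, which were kept apart. Positions and exon lengths came from GENCODE 44 (GRCh38) and promoters from RefSeq (GRCh38.p14). The contrast of the 4 naive with the 2 primed libraries was fitted in edgeR 4.0.16 (R 4.3.3) by glmQLFit and glmQLFTest after TMM scaling and filterByExpr by state, without covariates. P-values were adjusted after Benjamini-Hochberg over 28286 genes, and the threshold was 0.05 (common dispersion 0.06238). Line, induction method and the interaction of state and line were tested in separate edgeR models over the same 6 libraries. The SE of a log2 fold change is its size divided by the square root of the test statistic. DESeq2 1.42.0 and limma-voom (limma 3.58.1) were run as alternatives, beside other scalings and filters and leaving out each library. AICAR 1 and AICAR 2 were not 1 library deposited in duplicate, since their counts differed by more than sampling noise (chi-square of 30 per gene over 15217 genes, 28.4 to 53.8 in the other naive pairs), which does not show that they were separate inductions. Python 3.11.15 with pandas 2.3.3, scipy 1.17.1 and Biopython 1.88 served for the other steps.

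Members were named by a rule: the 8 highest and 4 lowest log2 fold changes among members with a mean of at least 1 CPM, 7 members with known roles or targets (ZNF91, ZNF93, ZNF85, ZNF43, ZNF675, ZNF257 and ZNF208), those past the threshold in the line or method contrasts, of which there were 0, and those with the highest and lowest level per length. At these totals a count of 0 allows up to 3 counts, and intervals cover counting error only.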

Additional observations from a re-analysis of the deposited data

Results flagged for a closer look

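In 2 cluster genes, 1 naive library stood apart from the other three by Dixon's criterion for 4 values, which chance meets in about 1 in 20 groups. VPA cells had 96.4 CPM of ZNF486, and the gap to the next library was 0.916 of the whole range of the naive group. VPA cells had 22.4 CPM of ZNF728, with a gap of 0.874 of the range. The naive minus primed log2 fold change was 6.56 in ZNF486 and 8.43 in ZNF728, with the VPA library included.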

How the results depend on the processing

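Over the alternatives, 24 to 27 cluster members were higher and 1 or 2 lower in naive cells, where 1 was left without the primed CA-p38 EOS library. Leaving out each library in turn gave a range of 1 to 2 for the members lower. No called member changed its sign, 25 members passed the threshold under each setting that gave them a value (15 of 17 settings for ZNF729 and ZNF728, 17 for the other 23) and 7 under none, while ZNF708, ZNF430, ZNF91 and ZNF431 passed in 16, 12, 10 and 8, and 3 members that did not pass changed sign. Of 538 values of single members, 35 moved by more than the spread of the naive libraries. The median log2 fold change of the members was 1.88 with library totals, 1.62 with at least 10 counts in every library, 1.59 over members with at least 10 counts in every primed library, a setting chosen after seeing the data, and 1.62 to 1.92 when a library was left out, lowest without primed EOS and highest without primed CA-p38 EOS. Leaving out a library gave 1 to 2 machinery genes and 5 to 9 genes of 7q11 as higher, the lowest counts without primed CA-p38 EOS and without primed EOS.

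Counts of genes called between lines and methods were low and moved with the setting. For the line, 5 genes were called by DESeq2, 28 without a filter beyond 1 count and 0 to 7 with a library left out, 7 without CA-p38. The interaction gave 4 with library totals, 29 by DESeq2, 21 without the filter and 0 with identifiers kept apart, by limma-voom, or where each library needed 10 counts. VPA against AICAR gave 12 with DESeq2 size factors, 86 by DESeq2, 4 by limma-voom, 226 without the filter, 0 with library totals or identifiers kept apart and 0 to 258 with a library left out. CA-p38 against AICAR gave 10 by DESeq2, 59 without the filter and 0 to 68 with a library left out. VPA against CA-p38 gave 1 with DESeq2 size factors, 22 by DESeq2, 131 without the filter and 0 to 179 with a library left out. The highest of these method counts came without a primed library. For members, VPA against AICAR gave 1 (ZNF729) without the filter and 0 to 2 with a library left out, and VPA against CA-p38 gave 1 (ZNF729) by DESeq2, 1 (ZNF729) without the filter and 0 to 2 with a library left out, the 2 being ZNF729 and ZNF208. The cause of these changes was not tested.

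The labels tie each naive library to a parental line, and with that line as a block 27 members were higher and 2 lower. Depth limits ZNF729 and ZNF728, which had 8 and 9 counts in the 2 primed libraries together.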
